A study of Arabidopsis thaliana with 11 samples.

Results

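The comparison was between 2 pools of chromatin-bound RNA from wild-type Arabidopsis seedlings: elongating RNA (RNAe), from which polyadenylated RNA and rRNA had been taken out, and CB-RNA, from which only rRNA had been taken out. The question it addressed was how the splicing readout and the reads along a gene differ between a pool without and a pool with its polyadenylated RNA. An intron was included if at least 20 exonic reads had been counted beside its 5ʹ splice site and beside its 3ʹ splice site in both RNAe and CB-RNA. This left 66737 introns of 12379 genes out of 121244 introns listed for 22121 genes. They were 8272 first, 49472 internal and 7871 last introns, with 1122 sole introns of single-intron genes. A further 31429 introns had been counted in both groups but fell under the minimum, and 22883 had no count in at least 1 of them. No measured difference entered this choice. The 1364 introns whose smallest count was exactly 20 had median 5ʹ SS ratios of 0.35 in RNAe and 0.32 in CB-RNA, and the 1451 introns just outside, at 19, had 0.359 and 0.333.

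All samples were 10-day-old Col-0 seedlings, the standard Arabidopsis laboratory accession, whole and untreated. RNAe came from 2 libraries and CB-RNA from 2. A second preparation with only rRNA removed, RNAe + RNAf (2 libraries), served as a measure of how far 2 preparations with the same RNA removed differ. It was not alike in every gene, since many clock and light-harvesting genes stood far lower in it than in CB-RNA. Some, such as TOC1, PRR3, ELF3 and LHCA5, stood higher. Polyadenylated chromatin-bound RNA (RNAf, 2 libraries) and mature mRNA (3 libraries) are given beside these as values. The paper describes RNAe, RNAe + RNAf and RNAf as made in parallel, and lists the CB-RNA libraries apart from them. RNAe and CB-RNA thus differ in preparation as well as in the removal of polyadenylated RNA, and these cannot be told apart. Nuclei were isolated from homogenised seedlings, the chromatin fraction was washed with urea, and polyadenylated RNA was bound to oligo-dT beads, so that RNAe is what the beads left behind. Each group had been deposited as 1 table of values over its libraries, so no spread between replicates could be computed. Every interval and p-value given below for an intron or a gene covers counting error only.

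Introns are cut out by the spliceosome, which joins the exon upstream of the 5ʹ splice site to the exon downstream of the 3ʹ splice site, and much of this happens while RNA polymerase II is still transcribing the gene. Transcripts caught in the act of elongation cover the 5ʹ part of a gene more than the 3ʹ part, and an intron near the 3ʹ end has been available to the spliceosome for the shortest time. Transcripts that have been cleaved and polyadenylated reach the 3ʹ end of the gene, and those still bound to chromatin are counted together with the elongating ones unless they are removed. The SS ratio is the number of intronic reads beside a splice site divided by the number of exonic reads beside it. A high ratio therefore stands for more unspliced RNA at that site.

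The introns on which the results below turn are shown here with 15 exonic bases on each side, 5ʹ to 3ʹ on the strand of the gene, from the RefSeq TAIR10.1 assembly. Capitals mark the first 6 bases of the intron at the 5ʹ splice site and its last 3 bases at the 3ʹ splice site. AT2G16940, IAA7 and PRR7 are shown for last introns with a higher ratio in RNAe, SR30 for a gene in which most introns were higher, and NAI2 and MP for internal introns with a lower ratio.
AT2G16940 intron 16 (chr2:7342902-7343039, minus strand): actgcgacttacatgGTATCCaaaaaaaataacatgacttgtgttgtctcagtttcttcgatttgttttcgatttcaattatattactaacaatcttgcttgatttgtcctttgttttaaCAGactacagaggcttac
IAA7 intron 4 (chr3:8196570-8196690, plus strand): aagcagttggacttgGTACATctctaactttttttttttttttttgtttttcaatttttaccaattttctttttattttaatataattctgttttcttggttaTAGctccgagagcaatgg
PRR7 intron 8 (chr5:638388-638520, minus strand): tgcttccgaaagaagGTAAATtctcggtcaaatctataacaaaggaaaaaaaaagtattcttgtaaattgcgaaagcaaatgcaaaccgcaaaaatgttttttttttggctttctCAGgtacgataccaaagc
SR30 intron 5 (chr1:2944946-2945082, minus strand): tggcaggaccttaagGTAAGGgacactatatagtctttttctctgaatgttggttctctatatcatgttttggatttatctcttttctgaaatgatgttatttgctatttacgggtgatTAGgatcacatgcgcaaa
NAI2 intron 15 (chr3:5400244-5400366, minus strand): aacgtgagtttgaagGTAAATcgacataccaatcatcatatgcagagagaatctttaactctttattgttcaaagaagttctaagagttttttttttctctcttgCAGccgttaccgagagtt
MP intron 4 (chr1:6888091-6888208, plus strand): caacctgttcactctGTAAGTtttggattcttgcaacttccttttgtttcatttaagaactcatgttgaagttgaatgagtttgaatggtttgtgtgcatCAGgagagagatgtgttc

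All of these introns start with GT and end with AG, as did 98.83% of the introns that were listed. The 5ʹ splice site of the AT2G16940 intron reads GTATCC, and that of the MP intron reads GTAAGT, the letters that pair best with the U1 small nuclear RNA. In the annotation 98.66% of the introns are introns of a RefSeq transcript.

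The tables held 15088650 exonic and 5223235 intronic reads for RNAe, against 31261639 and 10033186 for CB-RNA, summed over both splice sites of every intron, so a read can be counted at more than 1 site. At the median intron, RNAe gave 63 exonic reads at the 5ʹ splice site and CB-RNA 126, which makes a single ratio less precise in RNAe. Of all reads counted, 74.3% were exonic in RNAe against 75.7% in CB-RNA, and RNAf and mRNA stood higher at 88.5% and 97.8%. Exonic reads of a gene are given as RPM, scaled to the exonic reads of the pool on the reads-per-million scale. Reads beside a single intron are scaled to all reads counted in the pool, exonic and intronic. Their RPM values are therefore not comparable with those of genes. Markers of green shoot tissue and of root were both present, as whole seedlings hold: RCA, the activase of Rubisco, had 490 RPM in RNAe and 552.5 RPM in CB-RNA, and PIN2, the root auxin transporter, had 44.6 and 19.1. GLDP1, a photorespiratory subunit of leaf mitochondria, had 1031 in RNAe and 592.6 in CB-RNA. The root iron transporter IRT1 and the nitrate transporter NRT2.1 had 14 and 23 exonic reads in RNAe and were not counted in CB-RNA. Of the other root markers, COBL9 had 3.2 RPM in RNAe and 1.74 in CB-RNA, on 48 and 54 reads. EXPA7 was level at 6.06 in both. Among the other shoot markers SBPASE had 107.9 in RNAe and 155.2 in CB-RNA, LHCB4.1 79.7 and 97, and LHCA3 340.2 and 305.5. The shoot markers thus went both ways, and the root markers counted in both pools were higher in RNAe or level. The part that these marker differences have in the results was not tested, and more RNA per cell cannot be told apart from more cells of a type.

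Over the 66737 introns the ratios of RNAe were slightly higher than those of CB-RNA. The median 5ʹ SS ratio was 0.286 in RNAe (quartiles 0.147 and 0.486) and 0.263 in CB-RNA (0.14 and 0.446), a difference of 0.0226. The median 3ʹ SS ratio was 0.314 in RNAe (0.175 and 0.5) and 0.286 in CB-RNA (0.165 and 0.455), a difference of 0.0279. Taken intron by intron, the median difference was 0.0145 for the 5ʹ SS ratio, with 55.1% of introns higher in RNAe, and 0.0196 for the 3ʹ SS ratio, with 56.9%. The 2 distributions thus overlapped almost wholly. The second preparation with only rRNA removed differed from CB-RNA by a like amount in the other direction: over the 55313 introns it also measured, the median was 0.237 in RNAe + RNAf and 0.253 in CB-RNA at the 5ʹ splice site, a difference of -0.016, and it was -0.0156 at the 3ʹ splice site. Ratios were far lower in RNAf, with medians of 0.0383 and 0.0482, and in mRNA, with 0.00561 and 0.00648. Removal in RNAf was not complete everywhere: in the fifth of introns with the highest RNAf ratios, the median there was 0.3125 over 13153 introns. The ratio of CB-RNA lay between those of RNAe and RNAf at 53.2% of the 5ʹ splice sites that all 3 measured, above both at 42.5% and below both at 4.26%.

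The excess of RNAe was found at the 3ʹ end of genes. At last introns the median ratio was 0.4 in RNAe and 0.332 in CB-RNA at the 5ʹ splice site, and 0.439 and 0.362 at the 3ʹ splice site. The median difference within an intron was 0.0495 and 0.0635 at last introns, with 64.0% and 66.7% of them higher in RNAe. It was 0.0119 and 0.0164 at internal introns, 0.00644 and 0.0111 at first introns, and -0.00273 and 0.00184 at sole introns. The last introns were therefore the group that stood apart. Between RNAe + RNAf and CB-RNA the last introns moved the other way, by -0.0223 and -0.0239 over 6735 introns.

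In the 4496 genes with at least 8 introns the difference was ordered from the 3ʹ end. At the 5ʹ splice site it was 0.0634 at the last intron (medians 0.352 in RNAe and 0.267 in CB-RNA, 69.6% of 3012 introns higher), 0.0472 at the intron before it, then 0.0325, 0.022 and 0.0156. From the tenth intron from the end onwards it was 0 over 14647 introns, with medians of 0.184 in RNAe and 0.182 in CB-RNA. The 3ʹ splice site gave 0.0772, 0.0505, 0.0434, 0.0258 and 0.0186 for the last 5 introns and 0.00271 from the tenth on. The difference thus shrank with each step away from the last intron over these 5. RNAe + RNAf minus CB-RNA was negative at every place, at -0.0144 and -0.0169 for the last intron and -0.0053 and -0.00165 from the tenth on.

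**Figure D1:**
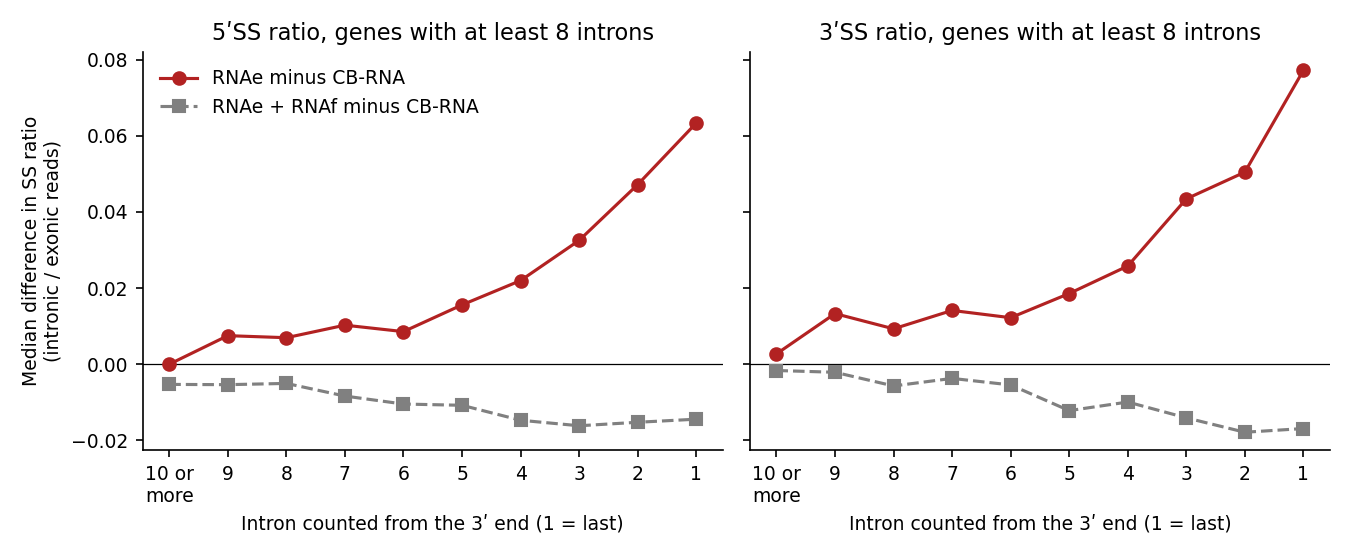
Median difference in SS ratio by intron, counted from the 3ʹ end of genes with at least 8 introns (x axis; 10 stands for the tenth and all further upstream), for the 5ʹ and the 3ʹ splice site (panels); circles are RNAe minus CB-RNA and squares RNAe + RNAf minus CB-RNA. The circles fall to 0 at the 5ʹ splice site by the tenth intron, against 0.0634 at the last intron, whereas the squares lie below 0.

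By distance to the annotated 3ʹ end of the gene, the difference was larger near the end for last introns and for those followed by another. Between 250 and 500 bp from the end, the median difference at the 5ʹ splice site was 0.0687 for 3210 last introns and 0.0662 for 567 introns followed by another. Between 500 and 1000 bp it was 0.0448 and 0.0405, and between 1000 and 2000 bp it was 0.011 and 0.0162. Between 2000 and 3000 bp it was 0.0143 for 69 last introns, above the value of the nearer class, and 0.00503 for the others. At 3000 bp or more from the end it was -0.00181 over 14325 introns. No test was made of the last introns against the others at a given distance, and the values lie close together.

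The exonic reads showed the same part of the gene from the other side. Each intron's share of the exonic reads of its gene was compared between the groups in genes with at least 3 introns. First introns held 15.7% of the exonic reads of their gene in RNAe and 13.9% in CB-RNA (medians over 7220 genes), a median log2 change of 0.16. Last introns held 14.2% in RNAe and 16.7% in CB-RNA, with a median log2 change of -0.22 over 6817 genes, and the share was lower in RNAe in 70.9% of them. The longer the gene, the further the last intron's share fell short: the median log2 change was -0.08 in genes under 1500 bp and -0.38 in genes of 5 kb or more, where the share was 4.6% in RNAe and 6.04% in CB-RNA. With the introns of each gene put in order into 10 parts from the first to the last, the median log2 change in share was 0.16 in part 1, 0.10 in part 5, 0.01 in part 7 and -0.24 in part 10, where 72.6% of introns had a lower share in RNAe. RNAe + RNAf over CB-RNA had no such slope, with 0.02 in part 1 and 0.03 in part 10, and RNAf over CB-RNA had the opposite one, with -0.78 and 0.61.

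**Figure D2:**
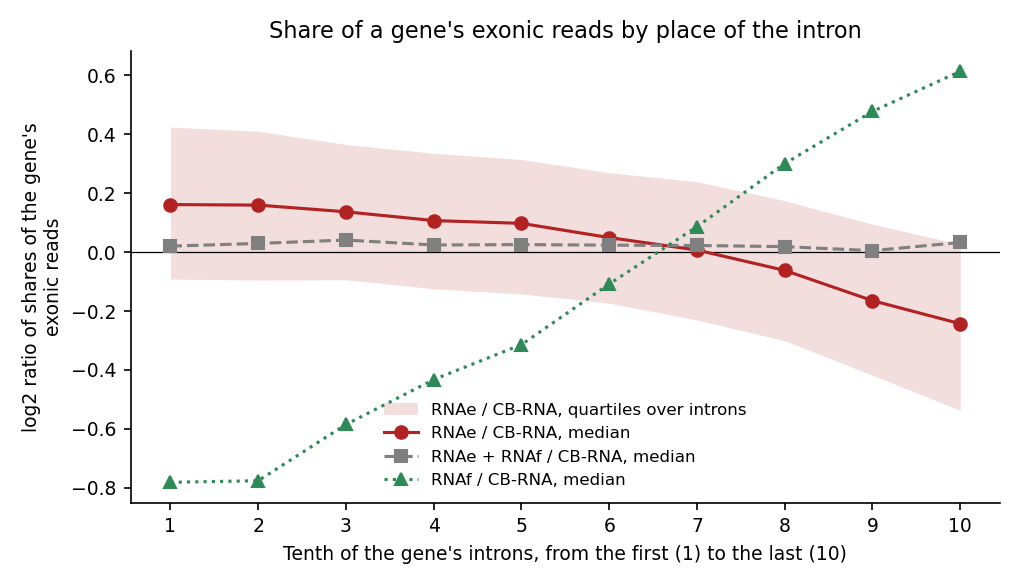
Median log2 change in the share of a gene's exonic reads against the place of the intron in the gene (x axis, introns of each gene in order in 10 parts from first to last), for RNAe over CB-RNA (circles, with the quartiles over introns shaded), RNAe + RNAf over CB-RNA (squares) and RNAf over CB-RNA (triangles). The circles decline from part 1 at 0.16 to part 10 at -0.24, the squares stay near 0, and the triangles climb to 0.61.

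Within single genes, exonic reads beside the last intron were set against those beside the first. Over the 5345 genes with at least 3 introns and enough reads at both ends, reads at the last over reads at the first intron had a median log2 value of -0.23 in RNAe and 0.21 in CB-RNA. The other pools had 0.26 (RNAe + RNAf), 1.503 (RNAf) and 0.40 (mRNA), so RNAe was the pool in which most genes had more reads at the first intron. The change within a gene had a median of -0.42 (quartiles -0.86 and 0.01) and was negative in 74.5% of genes. It reached 2-fold downwards in 998 genes (18.7% of those compared) and upwards in 71 (1.33%). For RNAe + RNAf against CB-RNA, over 3939 genes, the median was 0.01, with 230 genes (5.84%) down and 260 (6.60%) up by 2-fold. The SS ratios of the same genes gave a median difference of last minus first intron of 0.0498 (5ʹ) and 0.0597 (3ʹ), and -0.0125 and -0.0216 between the other 2 preparations.

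Introns were called individually when Fisher's exact test on intronic and exonic reads gave an adjusted p under 0.05 (Benjamini-Hochberg over all introns at that site) and the ratio differed at least 2-fold with 0.5 added to each count. In RNAe 1865 introns (2.79% of those tested) had a higher and 699 (1.05%) a lower 5ʹ SS ratio than in CB-RNA. At the 3ʹ splice site 1620 (2.43%) were higher and 547 (0.820%) lower, and at both sites together 628 (0.941%) were higher and 172 (0.258%) lower. Higher calls thus outnumbered lower ones by more than 2 to 1. Between RNAe + RNAf and CB-RNA, with 58677 introns tested, the calls were more even: 889 higher (1.52%) and 980 lower (1.67%) at the 5ʹ, 665 (1.13%) and 762 (1.30%) at the 3ʹ, and 226 (0.385%) and 270 (0.460%) at both sites. The lower calls of RNAe were therefore fewer than those between the 2 preparations from which only rRNA had been removed. Comparisons with CB-RNA share its reads, so the 2 sets of calls are not independent.

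Calls by place followed the medians. Of the last introns, 377 (4.79%) were called higher and 38 (0.483%) lower at the 5ʹ splice site, and 335 (4.26%) and 37 (0.470%) at the 3ʹ splice site. Internal introns had 1279 (2.59%) higher and 554 (1.12%) lower, and first introns 197 (2.38%) and 89 (1.08%), at the 5ʹ splice site. Sole introns had 12 higher (1.07%) and 18 lower (1.60%), and 0 of them were higher at both sites by this test. In the last introns of RNAe + RNAf against CB-RNA, 84 (1.10%) were higher and 133 (1.74%) lower. The introns called at both sites lay in 683 genes, 594 of which had a single such intron and 89 more than 1, with calls in both directions in 11 genes. SR30 had 8 of its 11 introns called, RGLG4, a ubiquitin ligase, 4 of 10, and AT3G27770 4 of 8.

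**Figure D3:**
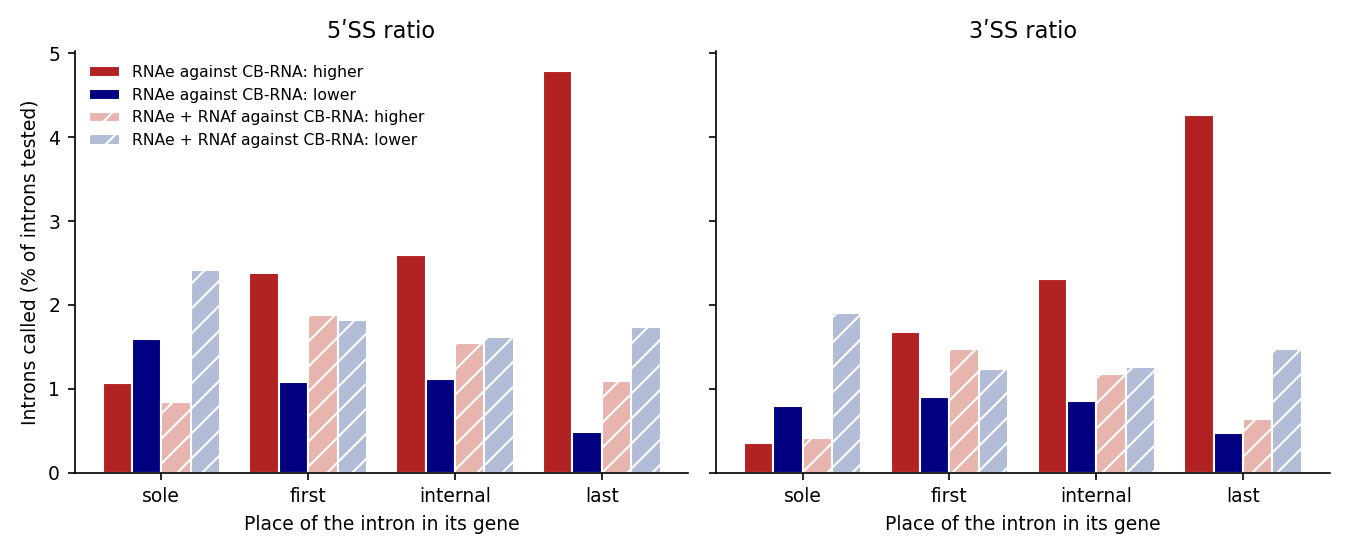
Percent of introns called higher and lower (y axis) among sole, first, internal and last introns (x axis), at the 5ʹ and 3ʹ splice sites (panels), for RNAe against CB-RNA (plain bars) and for RNAe + RNAf against CB-RNA (hatched bars). Last introns reach 4.79% higher calls in RNAe against CB-RNA, and 1.10% in RNAe + RNAf against CB-RNA.

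A ratio can be higher through more intronic or through fewer exonic reads. On the reads-per-million scale over all reads counted, the 628 introns called higher at both sites had a median log2 change of 1.21 in intronic and -0.44 in exonic reads, and 77.2% of them had fewer exonic reads in RNAe. The 172 called lower had -1.61 in intronic and 0.39 in exonic reads. The higher calls among last introns rested about as much on the exonic as on the intronic side, with 0.91 in intronic and -0.92 in exonic reads. Over all introns the medians were 0.17 and 0.08, and over all last introns 0.07 and -0.16. The introns called higher had a median ratio of 0.382 in RNAe and 0.112 in CB-RNA, with RNAe + RNAf between them at 0.175, and those called lower had 0.064 in RNAe and 0.262 in CB-RNA, with RNAe + RNAf at 0.138. These introns were chosen by the ratio, so the values describe them and are no test.

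The introns called higher at both sites had a median length of 91 bp, against 100 bp over all introns. The 5ʹ splice site letters GTAAGT stood in 11.5% of them and in 15.4% of those that were last introns, against 9.25% of all and 11.7% of all last introns. Their median ratio in RNAf was 0.0204, against 0.0447 over all introns, so that most were well removed in the polyadenylated pool. By annotation, 393 introns in 3ʹ untranslated regions had medians of 0.529 in RNAe and 0.441 in CB-RNA. Such introns were 3.75% of last introns against 0.589% of all introns, and this class was not separated from place in the gene. The 2072 introns in 5ʹ untranslated regions had 0.3 in RNAe and 0.309 in CB-RNA, a median difference of 0 within introns. The 33 introns with AT-AC ends, a class removed in part by the minor spliceosome, had 0.5 in RNAe and 0.519 in CB-RNA.

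The introns with the largest higher ratios, ranked by the counting bound of the fold change nearest to 0, included 2 last introns. The last intron of AT2G16940, a splicing factor related to CC1, had 31 intronic and 237 exonic reads in RNAe, a 5ʹ SS ratio of 0.131 (95% Wilson interval 0.0902 to 0.19), against 17 and 1495 in CB-RNA, a ratio of 0.0114 (0.00708 to 0.0183). The log2 fold change was 3.50 (Fisher's exact test, adjusted p = 7.1e-12), and 3.34 at the 3ʹ splice site (exact, adjusted p = 1.56e-15). Its exonic reads over both sites were 23.3 RPM in RNAe against 73.8 in CB-RNA, and its intronic reads 3.62 RPM against 1.08, so both sides moved. RNAe + RNAf had 0.0671, also called higher than CB-RNA at a log2 fold change of 2.55, and RNAf had 0.00414.

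IAA7 encodes an Aux/IAA repressor of auxin response. Its last intron had 67 intronic and 191 exonic reads in RNAe, a ratio of 0.351, against 58 and 1307 in CB-RNA, a ratio of 0.0444 (log2 fold change 2.98, Fisher's exact test, adjusted p = 1.02e-20). The 3ʹ SS ratio was 0.534 in RNAe and 0.1 in CB-RNA (exact, adjusted p = 6.44e-28). RNAe + RNAf lay between, at 0.146, and was also called higher than CB-RNA. Exonic reads beside the intron were 21.7 RPM in RNAe and 67.7 in CB-RNA.

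The other 4 of this set were internal introns. Intron 8 of CKA1, a catalytic subunit of casein kinase 2, had 13 intronic and 37 exonic reads in RNAe (0.351) against 3 and 143 in CB-RNA (0.021, exact, adjusted p = 0.000278), and RNAe + RNAf had 0.275, also called higher than CB-RNA. Intron 5 of AT5G04420, a kelch-repeat protein gene, had 38 and 42 in RNAe (0.905) against 5 and 67 in CB-RNA (0.0746, exact, adjusted p = 4.51e-06), with 0.12 in RNAe + RNAf. Both genes overlap another gene, so some of these reads may belong to the neighbour. Intron 4 of TRB2, a telomere-repeat binding protein gene, had 9 intronic and 27 exonic reads in RNAe and 0 and 91 in CB-RNA, at least 10.1-fold higher with a floor of 3 intronic reads in the pool (exact, adjusted p = 0.000694). At its 3ʹ splice site the counts were 11 and 30 in RNAe and 0 and 105 in CB-RNA, at least 12.8-fold higher. Intron 8 of XCT, a regulator of circadian period, had a ratio of 0.328 in RNAe and 0.042 in CB-RNA (exact, adjusted p = 5.53e-05), with 0.29 in RNAe + RNAf, likewise called higher than CB-RNA. TRB2 had 0.0278 in RNAe + RNAf and was not called there. Of the 6 introns, those of AT2G16940, IAA7, CKA1 and XCT were thus called higher at both splice sites also in the preparation that kept its polyadenylated RNA, and those of AT5G04420 and TRB2 were not.

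Of the 6 introns named by the same rule for a lower ratio, 0 were last introns. The clearest in read number was intron 15 of NAI2, a protein needed for the endoplasmic reticulum bodies of seedlings. It had 50 intronic and 429 exonic reads in RNAe, a ratio of 0.117 (0.0871 to 0.156), against 230 and 589 in CB-RNA, 0.39 (0.335 to 0.455), and the log2 fold change was -1.73 (Fisher's exact test, adjusted p = 2.72e-11). RNAe + RNAf had 0.18, called lower than CB-RNA at the 5ʹ splice site as well. Intron 4 of MP, the auxin response factor MONOPTEROS, had 2 intronic and 79 exonic reads in RNAe against 19 and 69 in CB-RNA (exact, adjusted p = 0.00654). Intron 2 of GCR1, a receptor-like membrane protein gene, had 0 and 25 in RNAe against 31 and 37 in CB-RNA, at least 6.98-fold lower. Intron 20 of GLU1, the ferredoxin-dependent glutamate synthase, had 0.00875 in RNAe and 0.0618 in CB-RNA. The other two, intron 1 of AT5G49950 (0.0297 in RNAe and 0.358 in CB-RNA) and intron 9 of AT3G45850 (0.0194 and 0.233), like those of MP and GLU1, lie in genes that overlap another gene. In RNAe + RNAf the 5ʹ SS ratios were 0.148 for MP, 0.0487 for GLU1, 0.0968 for AT5G49950 and 0.145 for AT3G45850, each between RNAe and CB-RNA and not called.

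Of the 5 introns that the study amplified by PCR, intron 6 of FUG1, a chloroplast translation initiation factor, was called lower. It had 95 intronic and 656 exonic reads in RNAe, a ratio of 0.145, against 305 and 795 in CB-RNA, 0.384 (log2 fold change -1.40, Fisher's exact test, adjusted p = 7.83e-12). RNAe + RNAf had 0.15 there, close to RNAe, but at the 3ʹ splice site it had 0.137, close to CB-RNA at 0.156, against 0.0641 in RNAe. Intron 1 of VIM1, a methylcytosine-binding protein gene, had 0 intronic and 33 exonic reads in RNAe against 8 and 23 in CB-RNA, and passed at the 5ʹ (exact, adjusted p = 0.0407) but not at the 3ʹ splice site (0.663). Intron 2 of NIR1, the nitrite reductase, had 0.592 in RNAe and 0.442 in CB-RNA, intron 9 of the auxin transporter ABCB19 0.801 and 0.786, and intron 5 of AT5G55220 0.32 and 0.342, and these 3 did not pass the test.

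SR30 encodes a serine/arginine-rich splicing factor whose own transcript is spliced in more than 1 way. All 11 introns had a higher ratio in RNAe than in CB-RNA at both splice sites, with 10 called at the 5ʹ, 8 at the 3ʹ and 8 at both. The 5ʹ SS ratios of introns 1 to 5 were 0.0492, 0.0815, 0.1, 0.223 and 0.238 in RNAe, against 0.00912, 0.0299, 0.0416, 0.107 and 0.0428 in CB-RNA. Those of introns 6 to 11 were 0.216, 0.421, 0.172, 0.444, 0.797 and 0.655 in RNAe, against 0.0655, 0.205, 0.0654, 0.138, 0.493 and 0.316 in CB-RNA. Intron 5, printed above, had the largest fold change at the 5ʹ splice site, at 2.45 on the log2 scale (Fisher's exact test, adjusted p = 1.3e-06). Intron 10 was the one that did not pass (exact, adjusted p = 0.059). Its 3ʹ SS ratio was high in every pool, at 1.06 in RNAe and 0.975 in CB-RNA, and at 0.959 in RNAf and 0.517 in mRNA. Its 5ʹ SS ratio was low in the polyadenylated pools, at 0.017 in RNAf and 0.0238 in mRNA, so there the reads inside the intron lay at its 3ʹ side. RNAe + RNAf did not sit at the level of CB-RNA throughout. At the 5ʹ splice site its ratio was 0.132 for intron 3 and 0.265 for intron 4, above RNAe, and 0.0472 for intron 5, near CB-RNA. At the 3ʹ splice site of intron 4 it was 0.185, below RNAe at 0.214. The ratio of the whole gene was 0.215 in RNAe against 0.111 in CB-RNA, just under 2-fold, and the last intron held 2.32% of its exonic reads in RNAe against 3.85% in CB-RNA.

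**Figure D4:**
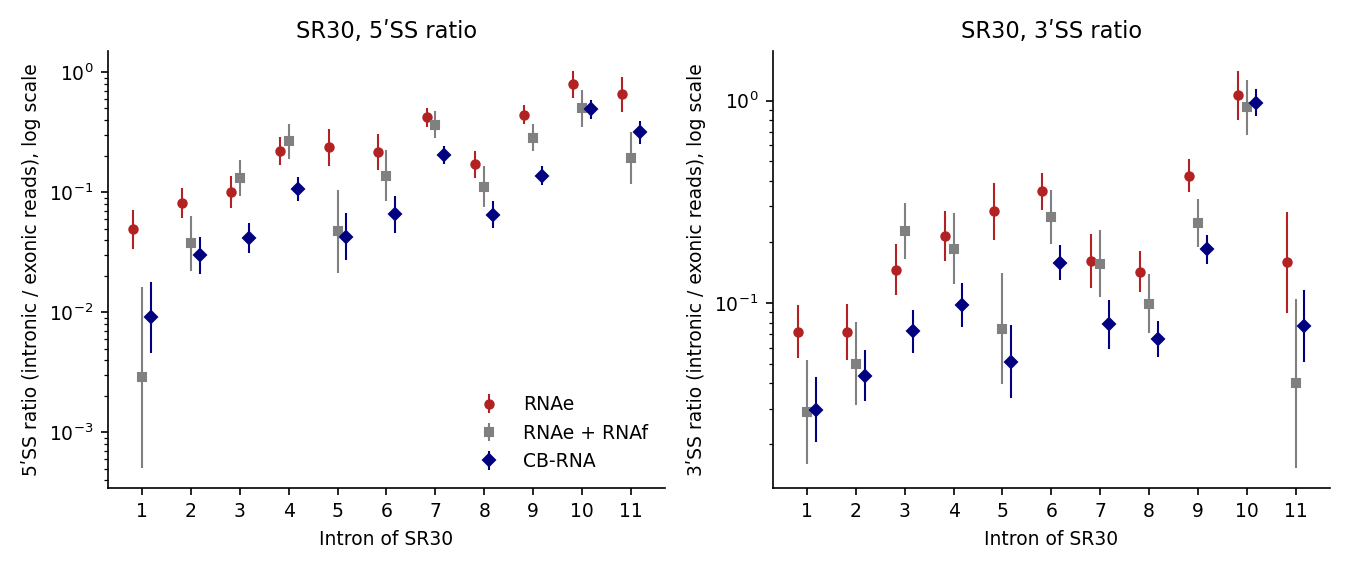
SS ratio of each intron of SR30 (x axis, introns 1 to 11; y axis on a log scale) in RNAe, RNAe + RNAf and CB-RNA, with 95% Wilson intervals, at the 5ʹ and 3ʹ splice sites (panels). RNAe lies above CB-RNA at all 11 introns. At the 5ʹ splice site RNAe + RNAf is near CB-RNA at intron 5 (0.0472) and above RNAe at intron 4 (0.265).

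PRR7 is a repressor of the circadian clock that peaks in the day. Its last intron had 223 intronic and 794 exonic reads in RNAe, a ratio of 0.281 (0.242 to 0.326), against 786 and 6420 in CB-RNA, 0.122 (0.114 to 0.132; log2 fold change 1.20, Fisher's exact test, adjusted p = 7.86e-17). At the 3ʹ splice site the ratio was 0.469 in RNAe and 0.217 in CB-RNA. Exonic reads beside it were 82.2 RPM in RNAe and 312.7 in CB-RNA. The last intron held 15.5% of the gene's exonic reads in RNAe against 30.2% in CB-RNA, and the first 6.74% against 3.38%. RNAe + RNAf had 4 intronic and 100 exonic reads at the last intron and 27.2% of the gene's exonic reads there.

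The gene lists, chosen for the tissue and for the machinery of transcription and splicing, are described by their counts beside all genes. SR splicing factors bind exons and help the spliceosome choose sites. Of their 116 introns, 16 were called higher and 1 lower at the 5ʹ splice site, against 2.79% and 1.05% of all introns. SR30 alone had 10 of these 16. At both sites 11 were higher and 0 lower, against 0.941% and 0.258% of all introns. 8 of these 11 are introns of SR30. The others were introns 7 and 9 of SR34 (0.165 and 0.199 in RNAe, 0.0415 and 0.0642 in CB-RNA) and intron 10 of SR34a (0.475 in RNAe, 0.133 in CB-RNA). RNAe + RNAf had 0.2 at SR34 intron 7, above RNAe, 0.145 at SR34 intron 9 and 0.43 at SR34a intron 10, near RNAe. In the Calvin cycle, which fixes carbon dioxide in the chloroplast, 0 of 82 introns were called higher and 10 lower at the 5ʹ splice site by this test, and 4 lower at both. These 4 were intron 3 of GAPA (0.0584 in RNAe, 0.142 in CB-RNA), intron 5 of GAPB (0.0191 and 0.0562), both of the plastid glyceraldehyde-3-phosphate dehydrogenase, and introns 3 and 4 of the transketolase TKL1 (0.0675 and 0.0573 in RNAe, 0.201 and 0.158 in CB-RNA). RNAe + RNAf had 0.141 for GAPA and 0.0387 for GAPB, and 0.0758 and 0.103 for TKL1, of which intron 3 was near RNAe.

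The counts of the other lists are read against 2.79% higher and 1.05% lower over all introns at the 5ʹ and 2.43% and 0.820% at the 3ʹ splice site. Of 148 introns of cleavage and polyadenylation factors 5 were higher and 1 lower at the 5ʹ splice site, with intron 5 of CSTF77, a cleavage stimulation factor, higher at both (0.343 in RNAe, 0.11 in CB-RNA) and intron 2 of the poly(A) polymerase PAPS1 lower (0.162 in RNAe, 0.528 in CB-RNA). RNAe + RNAf had 0.38 for CSTF77, above RNAe, and 0.447 for PAPS1. Of 133 introns of transcription elongation genes 2 were higher and 1 lower. Both introns of ELF7, a PAF1 complex subunit, called at both sites were higher: intron 8 had 0.241 in RNAe and 0.0181 in CB-RNA, and intron 10 had 0.342 and 0.14, with 0.103 and 0.211 in RNAe + RNAf. Intron 16 of NRPB2, the second-largest subunit of RNA polymerase II, was lower (0.0517 in RNAe, 0.268 in CB-RNA), with 0.179 in RNAe + RNAf. Of 70 introns of clock genes 3 were higher and 0 lower by the same test, of 28 introns of light-harvesting genes 1 and 0, and of 47 introns of WRKY and JAZ genes 0 and 0 at the 5ʹ and 1 and 0 at the 3ʹ splice site.

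The change in exonic reads from the first to the last intron differed among the lists. Its median was -1.31 over 12 SR genes, of which 11 were below 0 and 8 at least 2-fold down, against -0.42 over all 5345 genes, of which 3984 were below 0 and 998 at least 2-fold down. SCL33 had 206 exonic reads at the last and 231 at the first intron in RNAe, against 901 and 227 in CB-RNA, a log2 change of -2.15 (counting SE 0.17), with -0.88 in RNAe + RNAf over CB-RNA. SR34 had 118 and 392 in RNAe, against 550 and 624 in CB-RNA, a change of -1.55 (counting SE 0.17), whereas RSZ22 had a change of 0.45. These are reads as counted, and CB-RNA held about 2 times the exonic reads of RNAe, so in proportion RNAe had more at the first intron of SCL33 and less at the last. RNAe + RNAf over CB-RNA had a median of -0.21 over the SR genes and 0.04 over all genes. For the lists no read minimum was set in RNAe + RNAf. The median of 0.01 given above covers the 3939 genes that met the minimum there.

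All 9 clock genes measured were below 0, against 74.5% of all genes compared, with a median of -0.97 and a range from -2.35 to -0.21. CCA1, a morning-expressed repressor, had 107 exonic reads at the last and 66 at the first intron in RNAe, against 572 and 69 in CB-RNA, a change of -2.35 (counting SE 0.29). PRR7 had 1669 and 727 in RNAe, against 12912 and 1446 in CB-RNA (-1.96, counting SE 0.08), and GI, a clock and flowering regulator, 963 and 398 in RNAe, against 2321 and 396 in CB-RNA (-1.28). CCA1 and GI had nearly the same reads at the first intron in both pools although CB-RNA was sequenced deeper, so in proportion RNAe had more there. Clock genes were at other levels in RNAe + RNAf: the median log2 change of their exonic reads was -2.06 there over CB-RNA and -0.31 in RNAe over CB-RNA. They went both ways, with TOC1, PRR3 and ELF3 higher in RNAe + RNAf than in CB-RNA. CCA1, LHY and PRR9 were not counted in RNAe + RNAf.

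The light-harvesting genes, whose proteins bind chlorophyll in the antennae of the photosystems, had a median of -0.51 over 5 genes, all below 0. Over all genes compared the median was -0.42 and 74.5% were below 0, so a count this small says little about the list. Most light-harvesting genes were at another level in RNAe + RNAf: the median log2 change of their exonic reads over CB-RNA was -2.80 there and -0.57 in RNAe. LHCB2.1 had 5.84 RPM in RNAe + RNAf, against 194.6 RPM in RNAe and 284.3 RPM in CB-RNA, whereas LHCA5 was higher in RNAe + RNAf than in CB-RNA. LHCA2 had 733 exonic reads at the last and 1501 at the first intron in RNAe, against 2345 and 2346 in CB-RNA (-1.03). Calvin cycle genes had -0.20 over 13 genes, 8 of them below 0, which lies nearer 0 than the median of all genes. Cleavage and polyadenylation factors had -0.60 over 9 genes and spread widely: FY, a polyadenylation factor that acts in flowering time, had 75 and 527 in RNAe against 282 and 341 in CB-RNA (-2.53, counting SE 0.21), and CPSF30 had a change of 1.25. RNAe + RNAf had -1.31 for FY and -0.10 for CPSF30. Transcription elongation genes had -0.45 over 7 genes. Among them NRPB1, the largest subunit of RNA polymerase II, moved the other way, with 283 and 410 in RNAe against 290 and 1136 in CB-RNA (1.43), and by 2.36 in RNAe + RNAf over CB-RNA. WRKY and JAZ genes had -0.66 over 9 genes in RNAe and -0.39 in RNAe + RNAf.

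**Figure D5:**
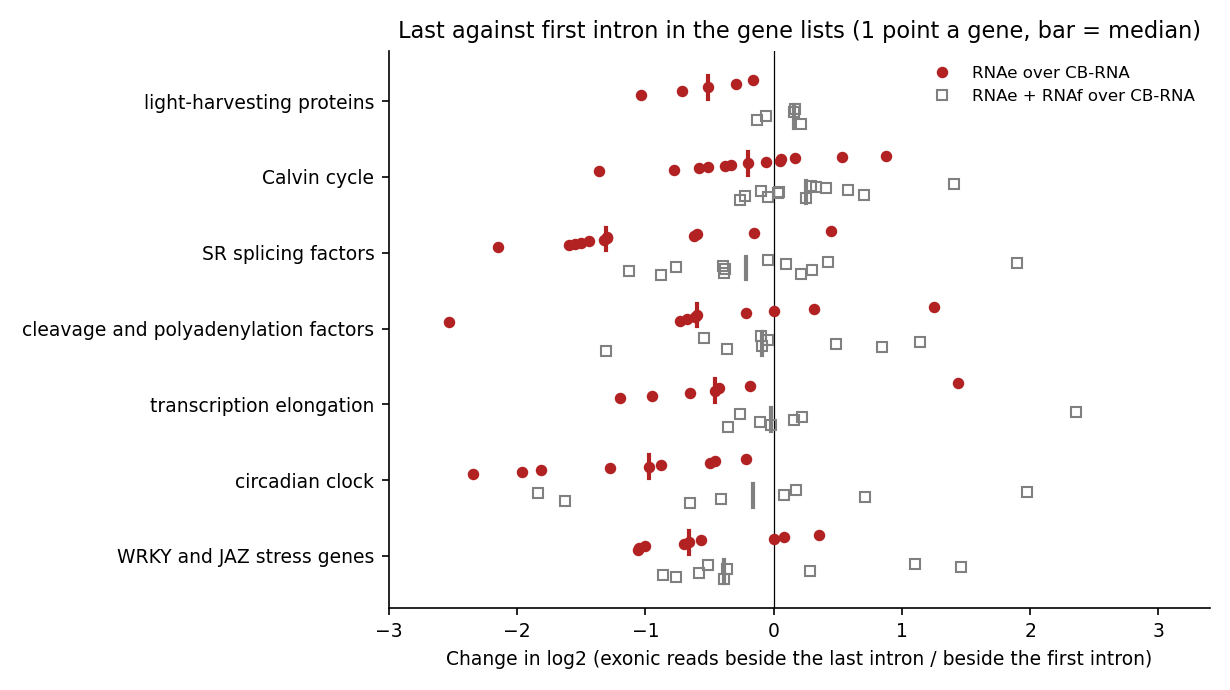
Change in log2 exonic reads beside the last over the first intron (x axis) for each gene of the lists (rows); filled circles are RNAe over CB-RNA, open squares RNAe + RNAf over CB-RNA, and bars their medians. All 9 clock genes and 11 of 12 SR genes lie below 0 in RNAe over CB-RNA, against 74.5% of all genes compared.

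Outside the lists, the largest shifts from the last to the first intron were partly shared with the second preparation. AT4G19420, a pectin acetylesterase gene, had 620 exonic reads at the last and 4160 at the first intron in RNAe, against 3738 and 2895 in CB-RNA, a change of -3.11. Its last intron held 3.17% of the gene's exonic reads in RNAe against 15.4% in CB-RNA. RNAe + RNAf had 411 and 1788, a change of -2.49 from the same CB-RNA counts. The cause of the shift was not tested. IREG1, an iron exporter, had -2.75 in RNAe and -2.02 in RNAe + RNAf. AT4G38350, of the Patched family, had 71 and 1688 in RNAe against 513 and 1633 in CB-RNA (-2.89, and -1.15 in RNAe + RNAf), and IMS1, an isopropylmalate synthase, 58 and 98 against 311 and 71 (-2.88, and -0.58). In the other direction AT2G47010 had a change of 2.17, AT2G39870 1.88, MDAR4, a peroxisomal monodehydroascorbate reductase, 1.56 and AT4G27700 1.53. All 4 were also up in RNAe + RNAf over CB-RNA, by 1.09, 2.84, 1.53 and 1.84 in the same order. AT4G19420, IMS1 and AT4G27700 overlap another gene, so some of their reads may belong to the neighbour.

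Summed over the gene, 15127 genes could be tested. The SS ratio of 182 genes (1.20%) was higher and that of 156 (1.03%) lower in RNAe, against 115 (0.775%) higher and 364 (2.45%) lower in RNAe + RNAf of 14837. The median log2 change of the gene's ratio was 0.10 in RNAe, above 0 in 62.1% of genes, and -0.05 in RNAe + RNAf. AT4G05170, a bHLH gene, had 0.326 in RNAe and 0.0251 in CB-RNA, and AT3G05727 had 16 intronic and 199 exonic reads in RNAe against 0 and 407 in CB-RNA, at least 10.9-fold higher. RNAe + RNAf had 26 intronic and 216 exonic reads there, a ratio of 0.12, above that of RNAe. AT1G63295 had 0.702 in RNAe and 0.114 in CB-RNA, with 0.211 in RNAe + RNAf, and AT4G17483 had 0.836 in RNAe and 0.178 in CB-RNA. Lower were RACK1C (AT3G18130), a scaffold protein of the ribosome (0.0485 in RNAe, 0.444 in CB-RNA), SYP111, the cytokinesis syntaxin KNOLLE (0.0588 and 0.451), and AT5G19250 (0.0326 and 0.332). RNAe + RNAf had 0.531 for RACK1C, 0 for SYP111 and 0.144 for AT5G19250, so they did not all sit with CB-RNA there. AT5G36790 was lower too (0.0464 and 0.257) but has near-identical copies, so its reads are uncertain. SYP111 overlaps another gene, so some of its reads may belong to the neighbour. RBCS1A, a small subunit of Rubisco, fell to 0.122 in RNAe, against 0.251 in CB-RNA and 0.205 in RNAe + RNAf (log2 fold change from CB-RNA -1.04, Fisher's exact test, adjusted p = 3.05e-56). The median over the Calvin cycle genes was -0.43 in RNAe and 0.15 in RNAe + RNAf.

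In exonic reads, 755 genes (4.99%) were higher and 301 (1.99%) lower in RNAe, against 1424 (9.60%) and 458 (3.09%) in RNAe + RNAf, so fewer genes were called in RNAe than in the second preparation. The median gene was 0.10 higher on the log2 scale in RNAe, and centred on that median the counts were 600 higher and 444 lower. CEP2, a cysteine endopeptidase of dying cells, had 176 RPM in RNAe and 23.2 RPM in CB-RNA, with 80 in RNAe + RNAf. HSP101, a heat shock protein that takes apart aggregates, had 35.7 in RNAe and 5.61 in CB-RNA, BCA3, a carbonic anhydrase, 130.7 and 22.1, AT5G48570, an FK506-binding protein gene, 124.7 and 19.5, and GR-RBP3, a glycine-rich RNA-binding protein gene, 13.1 and 1.45. The MATE transporter gene AT2G04050 had 13.9 in RNAe and 1.29 in CB-RNA, with 10.5% of its sequence words found elsewhere in the genome. Of these, AT5G48570 alone was no higher in RNAe + RNAf (18.4) than in CB-RNA. HSP101, BCA3 and GR-RBP3 overlap another gene, so some of their reads may belong to the neighbour.

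Lower in RNAe were SQS2, a squalene synthase gene, with 7.06 RPM in RNAe and 45.8 RPM in CB-RNA, AT3G15420 with 1.33 and 9.32, and ORP4C, of the oxysterol-binding family, with 22.8 and 107.2. QQS, a regulator of starch content, had 5.79 in RNAe and 27.9 in CB-RNA, and AT5G66650 3.93 and 18.5. AT1G59124 had 2.73 and 13.5, and all of its sequence words occur elsewhere, so its reads are uncertain. SQS2 and AT3G15420 had 44.2 and 9.71 in RNAe + RNAf, at the level of CB-RNA, while ORP4C had 24.7, at that of RNAe. SQS2, ORP4C and AT5G66650 overlap another gene, as does AT2G26780 below, so some of their reads may belong to the neighbour. The genes that the study drew as examples moved little: AT1G48090 had a ratio of 0.158 in RNAe and 0.168 in CB-RNA, AT2G26780 0.215 and 0.208, and SQS1 0.254 and 0.21. FUG1 had 0.115 in RNAe and 0.226 in CB-RNA over the whole gene, and RNAe + RNAf had 0.1355, nearer to RNAe.

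The exonic difference from CB-RNA went with the abundance of the polyadenylated form in both preparations. With the genes ranked by their level in RNAf and cut into 5 groups of like size, the median log2 change of exonic reads in RNAe over CB-RNA was 0.29, 0.17, 0.11, 0.04 and -0.06 from the lowest to the highest group, and the median change of the SS ratio was 0.04, 0.05, 0.09, 0.13 and 0.14. The lowest group held 371 genes called higher and 58 lower in exonic reads, and the highest 26 and 96. RNAe + RNAf over CB-RNA had a like slope in exonic reads, with medians of 0.31, 0.24, 0.18, 0.09 and -0.04 over the same groups, although no polyadenylated RNA had been removed from it. Its median change of the SS ratio went up as well but stayed below 0, with -0.08, -0.08, -0.07, -0.05 and -0.01. The slopes were thus found in both preparations, and it was the ratio's side of 0 that set them apart. Depth differs along these groups too, and its part was not tested.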

How the data were processed

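Chromatin-bound RNA and mRNA of Col-0 seedlings were sequenced with a directional kit. Per the study's methods the authors used Trimmomatic 0.39 for trimming and HISAT2 2.2.0 for alignment to TAIR10, sorted them with SAMtools 1.3.1, dropped reads with more than 1 alignment, and computed SS ratios for genes above an FPKM minimum from StringTie, using the longest transcript. The deposited tables hold 1 set of values per group: the 5ʹ and 3ʹ SS ratio of each intron and the intronic and exonic read counts behind it. How libraries were joined, how wide the counting windows were and whether strand was used are not given in the sources used here. The reads of 33.3% of the introns come from genes that overlap another gene, and reads of such a pair cannot be told apart if strand was not used.

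Ratios were recomputed from the deposited counts with Python 3.11.15, pandas 2.3.3, numpy 2.4.6 and scipy 1.17.1, and plotted with matplotlib 3.10.9. Introns with at least 20 exonic reads at both sites in both groups were tested by a two-sided Fisher's exact test with Benjamini-Hochberg adjustment over all introns of a site, and called at an adjusted p under 0.05 and at least 2-fold, with 0.5 added to each count. Genes were tested in the same way on summed reads. Ratio intervals are 95% Wilson intervals of the intronic share turned into ratios, and bounds against 0 use 3 reads. First and last introns were compared in genes with at least 3 introns. The scripts were tested on simulated data. Because replicates were pooled, the tests compare pools of libraries, not conditions, and cover counting error only. Whether replicates came from separate plants is not given.

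40 genes, with 261 introns, were left out because 74 of their introns start after they end. Named introns and genes are those with the largest counting bound nearest to 0: 6 introns in each direction called at both sites, 6 genes in each direction for exonic reads, 4 for SS ratio and 4 for last over first reads, with the genes drawn or amplified in the study and members of the lists. Members, lists and rules were chosen with earlier results of these data known. A list of ribosomal protein genes was not run, since the annotation used did not separate cytosolic from organellar ones. Alternatives were another read minimum, fold, adjusted p, pseudocount, scaling and gene set, and RNAe + RNAf in place of CB-RNA.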

Additional observations from a re-analysis of the deposited data

How the results depend on the processing

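No paired analysis was possible because each group was deposited as 1 table over its libraries, and for the same reason leaving out each library was not run. Of 32 alternatives for the differences and shares, 18 stayed within the interval of the main value, 14 moved and 0 changed sign. That interval comes from the ranks of the introns or genes behind each median. It measures neither counting error nor the spread between libraries. Of 48 for the counts of calls, 26 stayed within 1.5 times and 22 moved, and the balance of higher and lower calls turned for genes in exonic reads with RNAe + RNAf in place of CB-RNA and for genes in SS ratio with at least 100 reads. With at least 50 reads the differences of medians were 0.0144 and 0.0217. With RNAe + RNAf in place of CB-RNA they were 0.0386 and 0.044, the calls 703 higher and 253 lower at the 5ʹ and 619 and 194 at the 3ʹ splice site, the last minus first differences 0.0675 and 0.0786, the first and last share 0.13 and -0.28, and the genes called 369 and 750 in exonic reads and 429 and 98 in SS ratio. An adjusted p of 0.01 gave 907 and 257 calls at the 5ʹ and 695 and 165 at the 3ʹ splice site. Without overlapping genes 44495 introns were left, and the 3ʹ splice site had 1057 and 362 calls, 2.38% and 0.814% of them, close to the shares over all introns. Genes with at least 8 introns gave 0.0623 and 0.0741 and a last share of -0.34, genes of 2 to 5 kb a first share of 0.19, and minimums of 10 and 50 reads last shares of -0.25 and -0.19. At least 100 reads per gene gave 430 and 185 genes in exonic reads and 88 and 94 in SS ratio, and 1.5-fold gave 2296 and 1306, and 904 and 370. Of 66 values of named introns called against CB-RNA, 14 were also called against RNAe + RNAf, 46 no longer passed and 6 turned direction, and of 6 that were not called 3 turned direction. The 9 that turned were NIR1 intron 2 (log2 -0.27), ABCB19 intron 9 (-0.0173), AT5G55220 intron 5 (1.06), SR34 intron 7 (-0.28), SR30 intron 4 (-0.26) and, at the 5ʹ and 3ʹ splice sites, SR30 intron 3 (-0.40 and -0.64) and CSTF77 intron 5 (-0.15 and -0.32). The cause was not tested. With a pseudocount of 0.1 all 76 values kept their side of the threshold. Restricting to introns that RNAe + RNAf also measured was added after seeing the data.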

Other observations

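Heat shock genes, chosen after HSP101 had been seen among the genes with the largest exonic change, were looked at as a group. Of 92 measured, 13 were higher and 1 lower in exonic reads in RNAe than in CB-RNA by Fisher's exact test with at least 2-fold, against 4.99% and 1.99% of all genes tested. HSP101 itself is among the 13. Their median log2 change was 0.28 in RNAe over CB-RNA, against 0.10 over all genes. In RNAe + RNAf over CB-RNA it was 0.44, against 0.14 over all genes. The second preparation, from which no polyadenylated RNA had been removed, was thus higher as well.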
